A study of Mus musculus with 28 samples.

Results

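Serum amyloid A and other acute phase proteins that the liver secretes were followed gene by gene in liver RNA-seq from mice with diet-induced nonalcoholic steatohepatitis (NASH). The set held 10 genes named by their symbols, namely Saa1, Saa2, Saa3, Saa4, Hp, Itih3, Itih4, Orm1, Orm2 and Lcn2. All 10 were found among the 21935 genes of the count table, and all 10 passed the filter on low counts that left 12580 genes for testing. Orm3, which lies between Orm1 and Orm2, was described beside them.

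All 28 mice were male, of the leptin-deficient strain B6.V-Lepob/JRj, 5 weeks old on arrival, and ate the AMLN diet (high in fat including trans fat, and in fructose and cholesterol) for 14 weeks before dosing and through it. They then received vehicle (carboxymethylcellulose, 10 mice), obeticholic acid (OCA) at 30 mg/kg (9 mice) or INT-787 at 30 mg/kg (9 mice) by mouth once daily for 2 weeks. Both drugs are agonists of the farnesoid X receptor (FXR), the nuclear receptor that senses bile acids. The comparisons ask how each agonist changed liver gene expression against vehicle, and how the 2 agonists differed at the same dose. Every group shared the leptin deficiency and the diet, and no lean or chow-fed mice were analysed here. Differences from vehicle are therefore between treated and untreated steatohepatitic livers. Those between INT-787 and OCA are between steatohepatitic livers that were all treated.

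The acute phase response is the change in plasma proteins that follows infection or injury, and hepatocytes make most of these proteins. Interleukin-6, interleukin-1 and tumour necrosis factor reach the hepatocyte and act through STAT3, NF-kappaB and C/EBP factors on the promoters of the responding genes. Type 1 genes answer to interleukin-1 together with interleukin-6, type 2 genes answer to interleukin-6 alone, and negative acute phase genes such as albumin fall during the response. Serum amyloid A (Saa1, Saa2) is carried on high-density lipoprotein, and Saa4 is its constitutive form, whereas Saa3 is made chiefly by macrophages and fat cells. Haptoglobin (Hp) binds free haemoglobin, lipocalin 2 (Lcn2) binds bacterial iron carriers, the orosomucoids (Orm1, Orm2, Orm3) bind small lipophilic molecules, and Itih3 and Itih4 belong to the inter-alpha-trypsin inhibitor heavy chain family.

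The members fall into gene clusters. Saa3, Saa4, Saa1 and Saa2 lie within chromosome 7 from 46711998 to 46754313, Orm1, Orm3 and Orm2 within chromosome 4 from 63344560 to 63365878, and Itih4 and Itih3 within chromosome 14 from 30886476 to 30923760 (GRCm38). Hp lies on chromosome 8 from 109575128 to 109579172, and Lcn2 on chromosome 2 from 32384633 to 32388252. No exon of a member overlapped an exon of another gene on either strand. The coding sequences of Saa1 and Saa2 were 95.1% identical, those of Orm1 and Orm2 89.9% and those of Orm2 and Orm3 88.4%. Of all 75-base stretches of the transcript, 4.67% in Saa1, 1.04% in Saa2, 13.84% in Orm1, 13.98% in Orm2 and 0.143% in Orm3 also occurred letter for letter in another member or in Orm3, and none did in the other 6 genes. Reads from such stretches cannot be assigned to 1 gene, so the sums Saa1+Saa2 and Orm1+Orm2+Orm3 are given beside the single genes.

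Promoter sequences are shown, where one was found, for the neighbouring genes whose levels are compared below, because genes of 1 cluster, some with near-identical promoters, showed both like and unlike changes. Each is the 250 bases before the RefSeq transcription start (GRCm38.p6), read 5′ to 3′ on the strand of the gene. Capitals mark the letters of 3 motifs searched on both strands, TTGCNNAA (C/EBP), TTCNNNGAA (STAT3) and GGGNNNNNCC (NF-kappaB).
Saa1, chr7:46742981-46743230, minus strand: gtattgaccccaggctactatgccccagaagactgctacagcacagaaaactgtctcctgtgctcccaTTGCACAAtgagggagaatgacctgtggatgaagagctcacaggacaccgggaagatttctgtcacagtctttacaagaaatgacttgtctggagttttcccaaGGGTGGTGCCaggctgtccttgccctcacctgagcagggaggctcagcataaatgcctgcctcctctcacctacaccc
Saa2, chr7:46751583-46751832, plus strand: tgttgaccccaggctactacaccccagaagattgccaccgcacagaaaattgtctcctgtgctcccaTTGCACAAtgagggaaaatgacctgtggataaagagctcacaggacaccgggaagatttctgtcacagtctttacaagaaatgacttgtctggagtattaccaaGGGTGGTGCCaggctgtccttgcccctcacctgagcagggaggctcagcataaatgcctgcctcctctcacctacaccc
Saa4, chr7:46732604-46732853, minus strand: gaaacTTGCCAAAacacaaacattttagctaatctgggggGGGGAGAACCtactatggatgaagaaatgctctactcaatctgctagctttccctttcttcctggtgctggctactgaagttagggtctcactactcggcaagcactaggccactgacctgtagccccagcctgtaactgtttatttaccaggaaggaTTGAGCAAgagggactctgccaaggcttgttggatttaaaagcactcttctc
Saa3, chr7:46715677-46715926, minus strand: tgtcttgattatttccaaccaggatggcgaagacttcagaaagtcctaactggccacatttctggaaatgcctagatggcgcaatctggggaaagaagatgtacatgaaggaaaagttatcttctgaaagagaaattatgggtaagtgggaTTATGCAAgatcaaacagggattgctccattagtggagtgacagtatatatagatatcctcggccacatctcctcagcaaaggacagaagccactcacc
Orm2, chr4:63362199-63362448, plus strand: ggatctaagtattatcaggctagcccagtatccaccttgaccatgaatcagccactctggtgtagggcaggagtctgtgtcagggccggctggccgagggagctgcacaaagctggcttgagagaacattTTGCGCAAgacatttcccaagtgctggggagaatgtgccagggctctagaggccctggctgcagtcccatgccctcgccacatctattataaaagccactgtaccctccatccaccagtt
Orm3, chr4:63355908-63356157, plus strand: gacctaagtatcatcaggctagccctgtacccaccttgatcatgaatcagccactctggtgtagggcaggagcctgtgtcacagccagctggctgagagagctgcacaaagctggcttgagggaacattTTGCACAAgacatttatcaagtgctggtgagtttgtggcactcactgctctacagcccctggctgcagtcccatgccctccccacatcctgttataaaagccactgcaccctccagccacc
Itih4, chr14:30886226-30886475, plus strand: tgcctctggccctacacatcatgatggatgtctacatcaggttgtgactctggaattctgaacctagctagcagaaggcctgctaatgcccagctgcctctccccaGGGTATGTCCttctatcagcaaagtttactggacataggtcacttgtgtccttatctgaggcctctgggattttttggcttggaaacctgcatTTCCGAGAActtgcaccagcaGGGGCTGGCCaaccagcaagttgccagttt
Itih3, chr14:30923588-30923837, minus strand: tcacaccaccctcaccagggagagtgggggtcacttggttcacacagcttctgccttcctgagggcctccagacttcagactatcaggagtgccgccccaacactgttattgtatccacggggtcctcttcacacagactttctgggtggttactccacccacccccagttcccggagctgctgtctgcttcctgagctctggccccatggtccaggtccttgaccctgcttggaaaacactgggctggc

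A promoter of this length was found for 8 members and Orm3, and none was found for Hp or Orm1. The C/EBP letters stood in Saa1, Saa2, Saa3, Saa4, Orm2, Lcn2 and Orm3, against 9.56% of all 32851 promoters of the same length. At 45.8% of all promoters, the NF-kappaB letters were common. They were found in Saa1, Saa2, Saa4, Itih4 and Lcn2. The STAT3 letters, in 7.02% of all promoters, were found in Itih4 alone, at position -51 from its start, and Itih3 held none of the 3. An inverted repeat of AGGTCA with a 1-base spacer, the classical FXR motif, was in 2 of all promoters and in none of these 9. Letters so rare in exact form cannot show whether these promoters hold FXR sites. Promoters of Saa1 and Saa2 were 94.8% identical and placed TTGCACAA at positions -182 and -183 from the start, and those of Orm2 and Orm3 were 85.9% identical, with TTGCGCAA at -120 and TTGCACAA at -121. These matches describe letters in a window and not bound sites.

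Library totals ran from 1009593 counts (vehicle replicate 6) to 22421506. In vehicle replicate 5, genes silent elsewhere that lie opposite an expressed gene held 1.22 counts per count expected there from that gene, against 0.0134 to 0.0359 in the other 27 libraries. No member is touched by such an overlap. Expression of all genes also leaned with transcript length to a different degree in each mouse, and the slope of log2 CPM (counts scaled to library size) deviation on log2 exon length was -0.27 in vehicle replicate 10 and -0.15 in vehicle replicate 5, where short transcripts stood higher, against -0.11 to 0.18 in the other 26 mice. Group means of this slope were -0.0080 ± 0.128 (SD, n = 10) with vehicle, 0.0042 ± 0.0602 (n = 9) with OCA and 0.0047 ± 0.0582 (n = 9) with INT-787. Summed hepatocyte markers ranged from 75290 to 213200 CPM over all mice, as liver should, and 12 neutrophil markers summed to 3.86 to 15.5 CPM. In bulk liver, fewer cells of a type and less RNA per cell cannot be told apart.

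INT-787 lowered 7 of the 10 members against vehicle, Saa1, Saa2, Hp, Itih4, Orm1, Orm2 and Lcn2, and raised none. The median log2 fold change of the 10 was -0.63, against 0.00 to 2 decimals over all tested genes. A change was called at an adjusted p of at most 0.05, which edgeR gave by a quasi-likelihood fit adjusted after Benjamini and Hochberg for the 12580 genes tested, and 9.48% of those genes were called lower. OCA raised 2 members against vehicle, Itih3 and Itih4, and lowered none, with a median of 0.39 and 4.15% of all genes called higher. Between the agonists, INT-787 mice had lower values of 9 members than OCA mice and higher values of none, with a median of -0.98 and 3.19% of all genes called lower. In the opposite directions, 10.2% of all genes were called higher with INT-787 and 2.45% lower with OCA, each against vehicle, and 2.19% higher with INT-787 than with OCA. Values of the 2 groups did not overlap for 1 member between INT-787 and vehicle, for none between OCA and vehicle and for 5 between INT-787 and OCA, whereas 2.66%, 0.89% and 0.509% of all genes did not overlap in these comparisons. Zero members were called higher with INT-787 and zero lower with OCA by DESeq2 and limma-voom too, and at an unadjusted p under 0.05 there was 1 higher with INT-787 against vehicle (Itih3), none higher against OCA and none lower with OCA. The 3 comparisons share groups, so their counts are not independent.

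**Figure D1:**
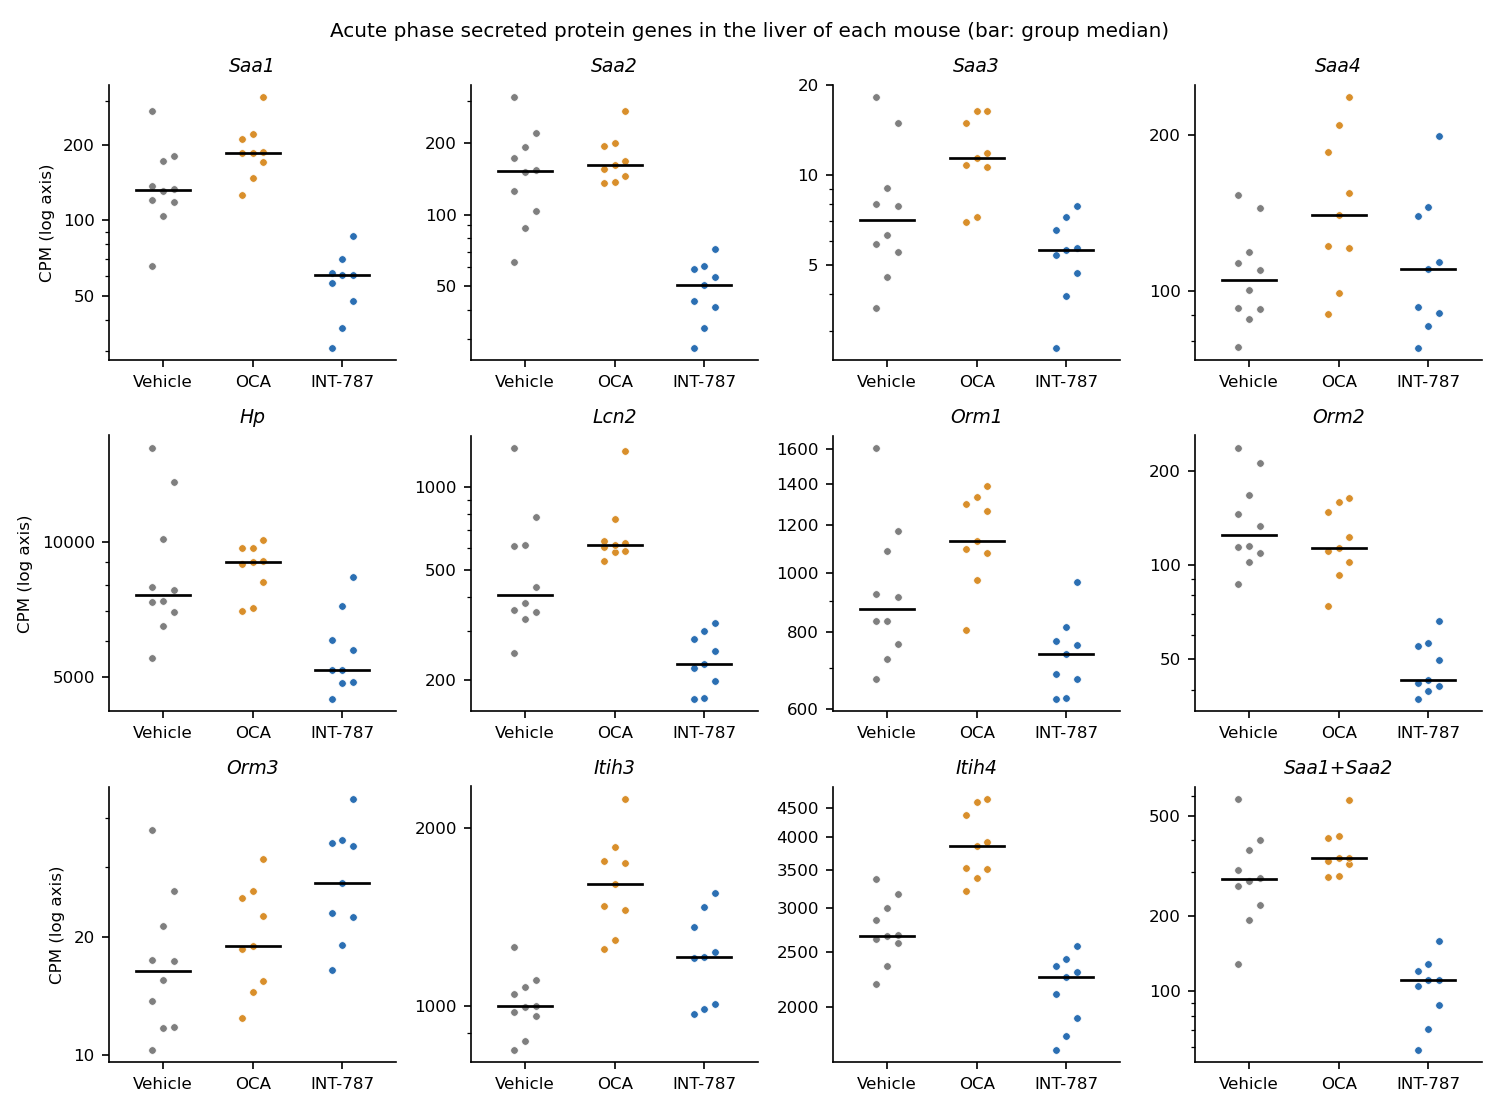
CPM on a log axis for each member, Orm3 and the Saa1+Saa2 sum, 1 point per mouse (vehicle n = 10, OCA n = 9, INT-787 n = 9) and a bar at the group median. All 9 INT-787 mice lie below all OCA mice for Saa1, Saa2, Orm2, Lcn2 and Itih4, whereas the groups overlap for Saa4, and INT-787 has the highest median for Orm3.

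Saa1 and Saa2, the acute serum amyloids, fell most with INT-787 among the Saa genes. Saa1 spanned 65.5 to 272 CPM (median 132) with vehicle, 126 to 310 CPM (median 186) with OCA and 30.9 to 86.6 CPM (median 60.1) with INT-787. In 7 of 9 INT-787 mice it lay below every vehicle mouse, and in all 9 below every OCA mouse. Its log2 fold change with INT-787 was -1.34 ± 0.20 (SE, adjusted p = 8.44e-06) against vehicle and -1.77 ± 0.20 (adjusted p = 1.18e-06) against OCA. With OCA it was 0.44 ± 0.19 against vehicle (adjusted p = 0.206).

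Saa2 gave the same order. Vehicle mice held 63.3 to 311 CPM (median 152), OCA mice 136 to 271 CPM (median 162) and INT-787 mice 27.6 to 72.0 CPM (median 50.5). INT-787 lowered it by a log2 fold change of -1.68 ± 0.22 against vehicle (adjusted p = 7.27e-07) and -1.82 ± 0.22 against OCA (adjusted p = 2.61e-06), and OCA differed from vehicle by 0.14 ± 0.21 (adjusted p = 0.802).

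The sum Saa1+Saa2, which does not depend on how shared reads were split, ranged from 129 to 583 CPM (median 279) with vehicle, 285 to 581 CPM (median 339) with OCA and 58.5 to 159 CPM (median 111) with INT-787. Every OCA mouse was above every INT-787 mouse, and 7 of 9 INT-787 mice were below all vehicle mice. The sum fell to 0.352 of vehicle with INT-787 (log2 fold change -1.51, 95% confidence interval -1.93 to -1.09, adjusted p = 1.69e-06) and stood at 0.288 of OCA (-1.80, -2.22 to -1.37, adjusted p = 1.50e-06). An exact two-sided permutation test of mean log2 CPM gave p = 6.495e-05 for INT-787 against vehicle, p = 4.11e-05 for INT-787 against OCA and p = 0.125 for OCA against vehicle.

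Saa3, the macrophage and adipocyte form, was the least abundant member at 15.1 CPM per kilobase of transcript with vehicle. It ranged from 3.604 to 18.2 CPM (median 7.09) with vehicle, 6.95 to 16.4 CPM (median 11.5) with OCA and 2.64 to 7.85 CPM (median 5.63) with INT-787. INT-787 mice were lower than OCA mice (log2 fold change -1.10 ± 0.24, adjusted p = 0.00574), and 7 of 9 lay below every OCA mouse. Against vehicle the values were -0.62 ± 0.24 with INT-787 (adjusted p = 0.0686) and 0.48 ± 0.24 with OCA (adjusted p = 0.271). The fall with INT-787 against vehicle was called without vehicle replicate 2 (-0.72, adjusted p = 0.0297) or vehicle replicate 3 (-0.70, adjusted p = 0.0389), whereas it was -0.22 (adjusted p = 0.498) without vehicle replicates 5 and 10 and -0.41 (adjusted p = 0.164) with the replicate block. The lowest library gave 6 counts of Saa3, so its values are the least precise of the set.

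Saa4, the constitutive serum amyloid, passed the test in no comparison. It spanned 78.0 to 153 CPM with vehicle, 90.3 to 237 CPM with OCA and 77.6 to 199 CPM with INT-787, and all groups overlapped. Its log2 fold changes were 0.10 (95% confidence interval -0.26 to 0.46) for INT-787 against vehicle, 0.47 (0.11 to 0.83, adjusted p = 0.117) for OCA against vehicle and -0.37 (-0.73 to 0.00) for INT-787 against OCA. These intervals do not show that the agonists act alike on Saa4.

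Hp was the most abundant member, at 6642 CPM per kilobase of transcript with vehicle, above Orm1 at 1231, Itih4 at 780 and Lcn2 at 601. It ranged from 5496 to 16180 CPM (median 7592) with vehicle, 6999 to 10080 CPM (median 9017) with OCA and 4460 to 8348 CPM (median 5166) with INT-787. The 2 highest values belonged to vehicle replicates 10 and 5, the mice in which short transcripts stood highest. INT-787 lowered Hp by a log2 fold change of -0.63 ± 0.16 against vehicle (adjusted p = 0.00525) and -0.60 ± 0.17 against OCA (adjusted p = 0.0256), while OCA and vehicle differed by -0.03 ± 0.16. Without those 2 vehicle mice the fall against vehicle was -0.37 (adjusted p = 0.0383). The call between the agonists was lost without OCA replicate 8 (-0.58, adjusted p = 0.0531), INT-787 replicate 7 (-0.56, adjusted p = 0.0553) or INT-787 replicate 9 (-0.58, adjusted p = 0.0542).

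Lcn2 ranged from 250 to 1386 CPM (median 407) with vehicle, 537 to 1348 CPM (median 615) with OCA and 170 to 321 CPM (median 228) with INT-787. All INT-787 mice lay below all OCA mice, and 5 of 9 below all vehicle mice. Its log2 fold change with INT-787 was -1.21 ± 0.24 against vehicle (adjusted p = 0.000379) and -1.56 ± 0.24 against OCA (adjusted p = 0.000134). OCA differed from vehicle by 0.35 ± 0.23 (adjusted p = 0.464), and vehicle replicate 10 alone held 1386 CPM where the next vehicle mouse held 779. Without vehicle replicates 5 and 10, the OCA value was 0.74 (adjusted p = 0.00915) and the INT-787 value against vehicle was -0.80 (adjusted p = 0.00180). Lcn2 is also made by neutrophils and macrophages. Among 12 neutrophil markers, the granule and surface genes Ly6g (at 0 in all 10 vehicle mice) and Camp (0.0736 CPM) were lowest, while Csf3r (2.43 CPM), S100a9 (1.74 CPM) and S100a8 (1.19 CPM) were detected in every vehicle mouse, and edgeR called none of the 3 neutrophil markers tested in any comparison, with 1 at an unadjusted p under 0.05 and 1 called by DESeq2, both lower with INT-787 against vehicle. Of 13 macrophage markers, 5 also fell with INT-787 against vehicle, where 9.48% of all genes fell. The part of these markers in the value of Lcn2 was not tested.

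The orosomucoids moved apart from each other. Orm1, the abundant form, spanned 671 to 1604 CPM (median 876) with vehicle, 806 to 1391 CPM (median 1130) with OCA and 623 to 966 CPM (median 736) with INT-787, and the groups overlapped throughout. It was lower with INT-787 than with OCA by a log2 fold change of -0.64 ± 0.13 (adjusted p = 0.00364), and OCA differed from vehicle by 0.27 ± 0.13 (adjusted p = 0.256). Against vehicle the fall of -0.37 ± 0.13 (adjusted p = 0.0464) stood at the threshold and was lost in 17 of 28 fits that left out 1 mouse, reaching -0.25 (adjusted p = 0.124) without vehicle replicate 10.

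Orm2 was the member that INT-787 separated from vehicle in every mouse. It spanned 87.2 to 237 CPM (median 125) with vehicle, 74.0 to 164 CPM (median 114) with OCA and 37.4 to 66.5 CPM (median 43.0) with INT-787, so that no INT-787 mouse reached the lowest mouse of either other group. INT-787 lowered it by a log2 fold change of -1.58 ± 0.17 against vehicle (adjusted p = 2.93e-08) and -1.34 ± 0.17 against OCA (adjusted p = 6.91e-06). OCA differed from vehicle by -0.24 ± 0.17 (adjusted p = 0.483).

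Orm3 went the other way. It spanned 10.3 to 37.4 CPM (median 16.4) with vehicle, 12.4 to 31.4 CPM (median 18.96) with OCA and 16.4 to 44.7 CPM (median 27.3) with INT-787. It rose with INT-787 by a log2 fold change of 0.65 ± 0.22 against vehicle (adjusted p = 0.0324), a call lost in 9 of 28 fits that left out 1 mouse and held at 0.96 (adjusted p = 0.000734) without vehicle replicates 5 and 10. Its value was 0.17 ± 0.22 for OCA against vehicle (adjusted p = 0.755) and 0.47 ± 0.22 for INT-787 against OCA (adjusted p = 0.227). The sum of the 3 genes, which Orm1 dominates, fell from 1115 ± 328 CPM (SD, n = 10) with vehicle to 816 ± 122 CPM (n = 9) with INT-787 (log2 fold change -0.45, adjusted p = 0.0160) and was 1294 ± 215 CPM (n = 9) with OCA. Without vehicle replicates 5 and 10 that fall was -0.27 (adjusted p = 0.0941).

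Itih3 and Itih4, heavy chains of the inter-alpha-trypsin inhibitor family, were the members OCA raised. Itih3 spanned 844 to 1261 CPM with vehicle, 1248 to 2241 CPM with OCA and 969 to 1555 CPM with INT-787, and 8 of 9 OCA mice lay above every vehicle mouse. OCA raised it by a log2 fold change of 0.69 ± 0.11 (adjusted p = 5.28e-05), and INT-787 stood at 0.27 ± 0.11 against vehicle (adjusted p = 0.0765) and -0.42 ± 0.11 against OCA (adjusted p = 0.0220). The difference between the agonists was not called without INT-787 replicate 9 (-0.36, adjusted p = 0.0689), in a fit of those 2 groups alone (-0.41, adjusted p = 0.0532) or with runs of adjacent sample numbers entered as a factor (-0.40, adjusted p = 0.0566). Against vehicle, INT-787 mice were called higher without vehicle replicate 7 (0.31, adjusted p = 0.0464) or INT-787 replicate 8 (0.31, adjusted p = 0.0473).

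Itih4 spanned 2200 to 3367 CPM with vehicle, 3212 to 4660 CPM with OCA and 1683 to 2571 CPM with INT-787. It was the member that the agonists moved in opposite directions, by a log2 fold change of 0.50 ± 0.10 with OCA (adjusted p = 0.000906) and -0.35 ± 0.10 with INT-787 (adjusted p = 0.0113), each against vehicle. OCA and INT-787 mice did not overlap, and the difference between them was -0.85 ± 0.10 (adjusted p = 2.32e-06). It varied least between mice, with a within-group SD of 0.20 on the log2 scale against 0.29 for the median tested gene, where Saa3 had 0.56, Lcn2 0.53 and Saa2 0.51.

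**Figure D2:**
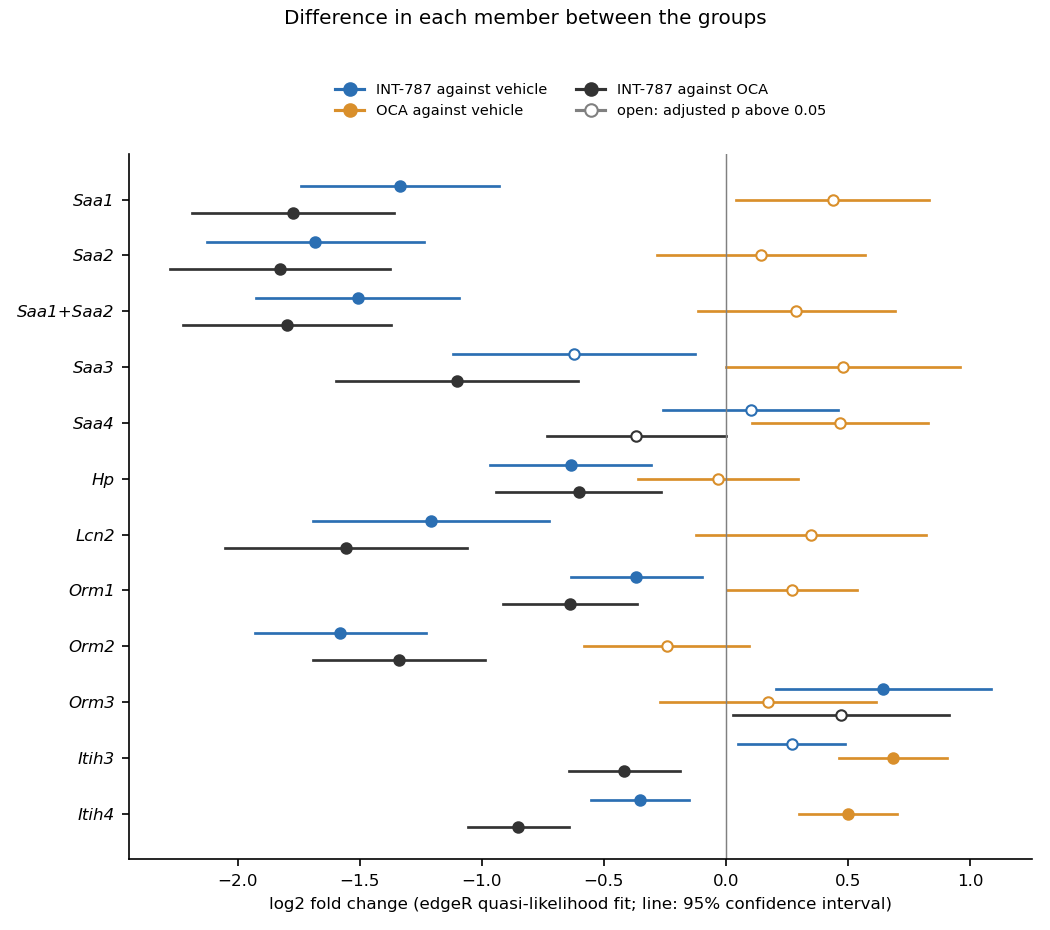
Log2 fold change of each member, the Saa1+Saa2 sum and Orm3 in the 3 comparisons from edgeR, with the 95% confidence interval as a line; filled points have an adjusted p of at most 0.05. The INT-787 points of Saa1, Saa2, Orm2 and Lcn2 lie between -1.21 and -1.82, Saa4 is open in every comparison, and for OCA against vehicle the only filled points are Itih3 and Itih4.

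For OCA against vehicle the count of called members depended on vehicle replicate 10. Without it 4 members were called, all higher, with Saa1 at 0.58 (adjusted p = 0.0429) and Orm1 at 0.37 (adjusted p = 0.0467) joining Itih3 and Itih4. Without vehicle replicates 5 and 10 together 5 were called, Saa3 at 0.87 (adjusted p = 0.00542), Orm1 at 0.44 (adjusted p = 0.0132) and Lcn2 joining Itih3 and Itih4. With the length slope as a covariate 4 were called, with Saa3 at 0.61 (adjusted p = 0.0456) and Orm1 at 0.34 (adjusted p = 0.00937). No setting called a member lower with OCA. The part of the length trend in these results was not tested beyond these fits.

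Ratios between genome neighbours were compared within each mouse, which removes library depth. Log2 CPM of the 6 adjacent pairs in the 3 clusters gave 18 exact two-sided permutation tests, chosen after the single-gene values were seen, with p-values adjusted over the 18. Of these, 10 had an adjusted p of at most 0.05. The log2 ratio of Itih4 to Itih3 was 1.44 ± 0.11 (SD, n = 10) with vehicle, 1.26 ± 0.22 (n = 9) with OCA and 0.82 ± 0.11 (n = 9) with INT-787. All INT-787 mice were below all vehicle mice, a difference of -0.61 ± 0.05 (SE, exact p = 2.17e-05, the smallest this design allows, adjusted p = 0.00013). OCA mice overlapped vehicle mice, and only OCA replicate 8 (0.87) lay within the range of INT-787 mice. The difference of OCA from vehicle was -0.17 ± 0.08, and that of INT-787 from OCA was -0.44 ± 0.08 (exact permutation tests, adjusted p = 0.0626 and 0.000555).

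The ratio of Orm3 to Orm2 moved furthest. Its log2 value was -2.99 ± 0.41 (SD, n = 10) with vehicle, -2.56 ± 0.53 (n = 9) with OCA and -0.79 ± 0.48 (n = 9) with INT-787. INT-787 mice overlapped neither group, and the difference was 2.21 ± 0.21 (SE) from vehicle and 1.78 ± 0.24 from OCA (exact permutation test, adjusted p = 0.00013 for each). Orm1 to Orm3 fell by 1.01 on the log2 scale from vehicle to INT-787 without overlap. Orm2 and Orm3, whose promoters share 85.9% of their letters, differed in direction.

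Saa4 to Saa1 shifted by 1.38 ± 0.24 from vehicle and by 1.43 ± 0.26 from OCA with INT-787 (exact permutation test, adjusted p = 0.00013 and 0.000423), from means of -0.34 and -0.39 to 1.05. The ratio of Saa1 and Saa2 to each other had smaller shifts, of 0.30 ± 0.09 with INT-787 (adjusted p = 0.00783) and 0.24 ± 0.11 with OCA (adjusted p = 0.0626, exact permutation tests) against vehicle.

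**Figure D3:**
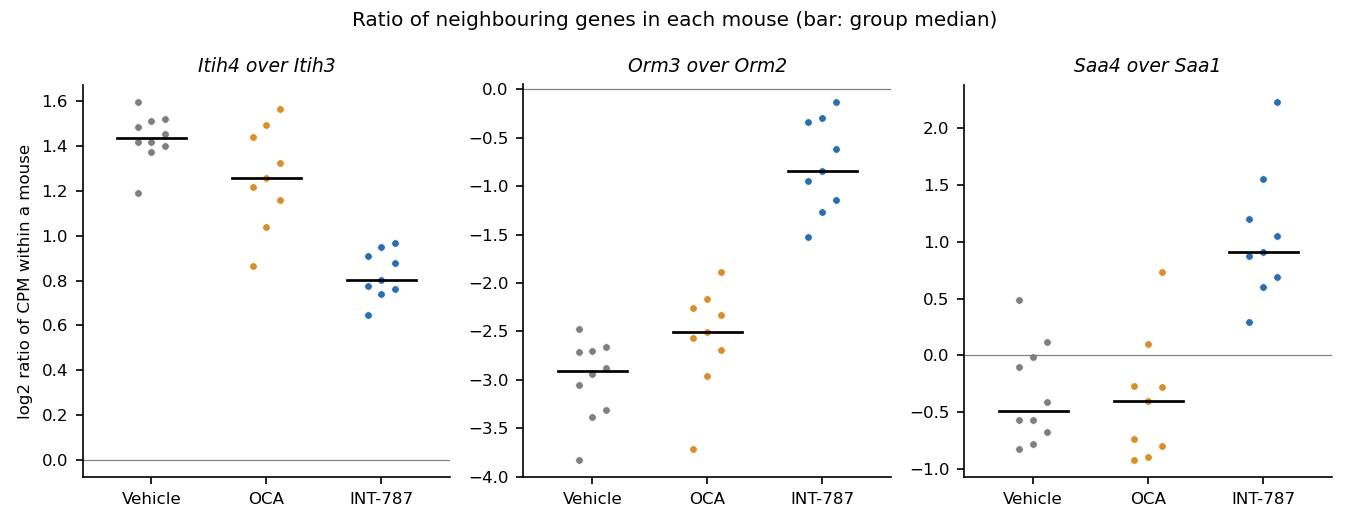
Log2 ratio of CPM of 2 neighbouring genes within each mouse, 1 point per mouse, with the group median as a bar and a line at 0 (equal CPM). For Itih4 over Itih3, INT-787 mice lie below all vehicle mice, and for Orm3 over Orm2 they lie above all mice of both other groups, whereas OCA and vehicle overlap in each panel.

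Other acute phase genes were read from lists that include members, and a list is described here by its counts and median only. Over all tested genes, 10.2% were called higher and 9.48% lower with INT-787, and 4.15% and 2.45% with OCA, each against vehicle. Between the agonists, 2.19% were higher and 3.19% lower with INT-787. These shares stand beside every list count below. Of 18 type 1 genes, 10 fell and 1 (Orm3) rose with INT-787 against vehicle, 1 (C3) rose with OCA, and 12 were lower under INT-787 when set against OCA. The number that rose with OCA ran from 0 to 5 over 13 other settings and from 1 to 4 over the 28 fits without 1 mouse. Outside the 10 members, 4 of 10 type 1 genes fell with INT-787. Apcs, serum amyloid P component, fell from 117 ± 33.3 CPM (SD, n = 10) to 61.6 ± 17.6 CPM (n = 9), a log2 fold change of -0.92 (adjusted p = 7.72e-05). C3, the central complement component, rose from 10020 ± 1772 CPM (n = 10) to 14470 ± 3499 CPM (n = 9) with OCA (0.53, adjusted p = 0.0124).

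Of 13 type 2 genes, 5 fell and 1 rose with INT-787 against vehicle, while 5 rose and none fell with OCA. Over all genes, 9.48% fell and 10.2% rose with INT-787, and 4.15% rose and 2.45% fell with OCA. The list median was -0.13 with INT-787 and 0.32 with OCA. The number called with OCA ran from 1 to 8 over 13 other settings and from 2 to 6 over the 28 fits without 1 mouse, moving by over 1.5 times in 13 of those 28. Fgl1, a fibrinogen-like hepatokine, fell from 351 ± 93.1 CPM (SD, n = 10) to 57.3 ± 25.2 CPM (n = 9) with INT-787 (log2 fold change -2.62, adjusted p = 6.72e-12). The metallothioneins Mt1 and Mt2, which bind zinc and copper, fell by 2.10 and 2.72 on the log2 scale (adjusted p = 3.44e-06 and 9.61e-07). Serpina3m, a serine protease inhibitor, rose with both agonists, by 0.60 with INT-787 (adjusted p = 0.000215) and 0.66 with OCA (adjusted p = 0.000141). OCA also raised the fibrinogen chains Fga (0.37, adjusted p = 0.0219) and Fgb (0.36, adjusted p = 0.0377) and the copper carrier ceruloplasmin, Cp (0.40, adjusted p = 0.0311). Serpina3n was lower with INT-787 than with OCA by 0.66 on the log2 scale (adjusted p = 0.000134), as were Fgl1 (-2.34), Mt2 (-2.10) and Mt1 (-1.74).

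Some negative acute phase genes rose with each agonist. Of 14, 7 were higher with INT-787 and 4 with OCA, none was lower with either, and 1 was called between the agonists. Over all genes, 10.2% were higher with INT-787 and 4.15% with OCA. Over the fits without 1 mouse, 4 to 7 were higher with INT-787 and 3 to 6 with OCA, with 1 called lower with OCA without vehicle replicate 1, and over 13 other settings 3 to 9 and 2 to 6 were higher. The count between the agonists moved in 8 of 28 fits without 1 mouse, and DESeq2 and limma-voom each called 1 gene higher and 1 lower. Rarres2, which encodes chemerin, rose from 628 ± 169 CPM (SD, n = 10) to 1213 ± 171 CPM (n = 9) with INT-787 (log2 fold change 0.95, adjusted p = 4.86e-06) and to 853 ± 177 CPM (n = 9) with OCA (0.44, adjusted p = 0.0456), and was higher with INT-787 than with OCA (0.51, adjusted p = 0.0269). Antithrombin, Serpinc1, rose by 0.56 (adjusted p = 0.000258), the retinol carrier Rbp4 by 0.63 (adjusted p = 0.000489) and coagulation factor F12 by 0.32 (adjusted p = 0.0214) with INT-787. With OCA, Ahsg (fetuin-A) rose by 0.66 (adjusted p = 6.63e-05), Alb by 0.62 (adjusted p = 0.00459) and Rbp4 by 0.47 (adjusted p = 0.0198).

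**Figure D4:**
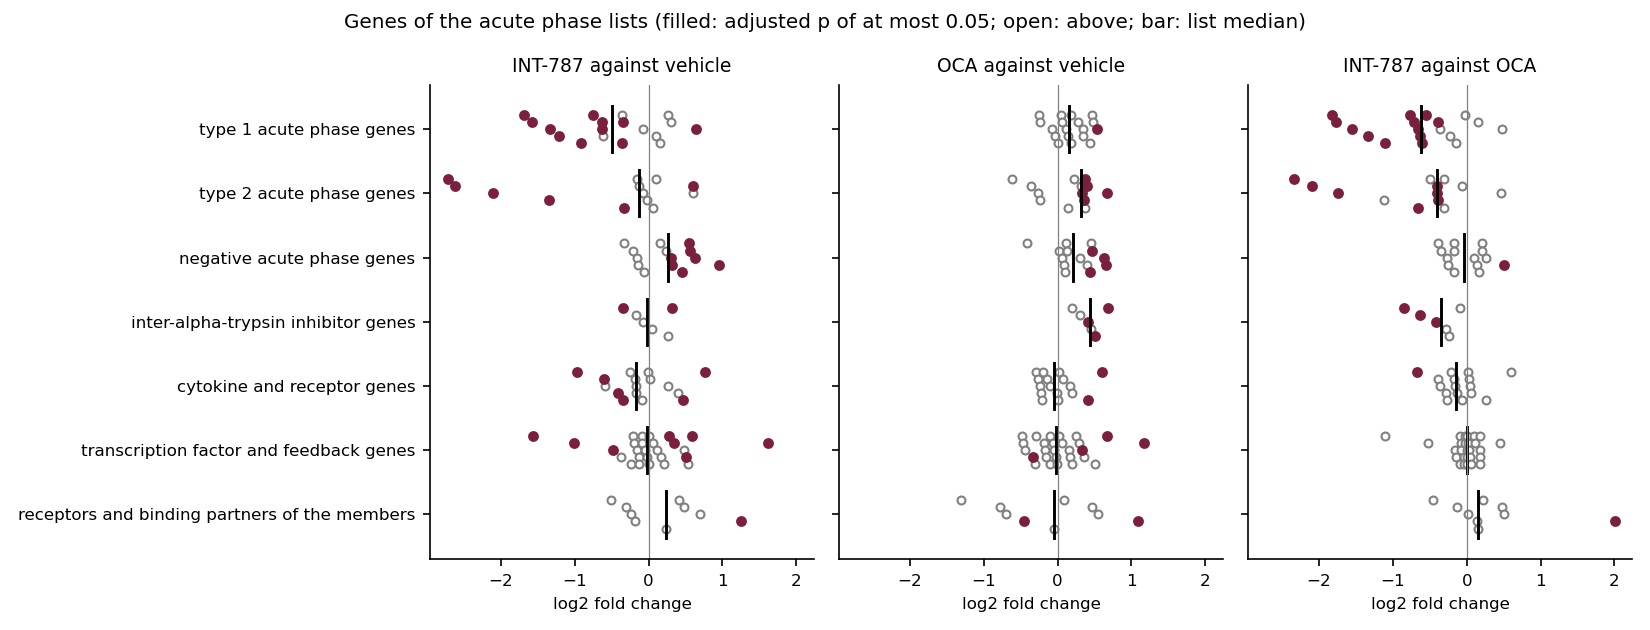
Log2 fold change of each tested gene of 7 lists in the 3 comparisons; filled points have an adjusted p of at most 0.05, open points do not, and the bar is the list median. Type 1 and type 2 genes lie mostly to the left with INT-787 against OCA, and no filled negative acute phase gene lies to the left in any comparison.

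Within the inter-alpha-trypsin inhibitor family 6 of 9 genes were tested. Itih2 rose with both agonists, by 0.32 with INT-787 (adjusted p = 0.00377) and 0.41 with OCA (adjusted p = 0.000643), and Itih4 was the only family gene called lower with INT-787 against vehicle. Itih5, low at 24.04 CPM with INT-787 and 37.3 CPM with OCA, was lower with INT-787 than with OCA (-0.63, adjusted p = 0.0153). No family gene fell with OCA.

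Among the cytokines upstream of the members, Il6, Osm and Il11 were close to the limit of detection, Il22 was at 0 in all 28 mice and the others were low. Il6 was at 0 in 8 of 10 vehicle, 7 of 9 OCA and 8 of 9 INT-787 mice and never exceeded 0.159 CPM, Tnf stayed at or under 0.966 CPM and Il1b, detected in every mouse, at or under 2.11 CPM. Il1a averaged 2.51 to 2.68 CPM in the 3 groups. Of 16 cytokine and receptor genes tested, 2 rose and 4 fell with INT-787, and 2 rose with OCA. Over all genes, 10.2% rose and 9.48% fell with INT-787, and 4.15% rose with OCA. Over the fits without 1 mouse, 2 to 3 rose and 2 to 5 fell with INT-787. The OCA count was 0 to 2 across other settings and moved in 20 of 28 fits without 1 mouse. Il1rn, the interleukin-1 receptor antagonist and itself an acute phase protein, fell from 16.8 ± 5.32 CPM (SD, n = 10) to 8.71 ± 1.56 CPM (n = 9) with INT-787 (log2 fold change -0.96, adjusted p = 6.74e-05) and was the only gene of the list called between the agonists (-0.68, adjusted p = 0.0132). Il1rap, a co-receptor of the interleukin-1 receptor, rose with both agonists, by 0.46 with INT-787 (adjusted p = 0.00710) and 0.41 with OCA (adjusted p = 0.0357). Il22ra1 rose by 0.77 with INT-787 (adjusted p = 0.00680), the adaptor Myd88 fell by 0.35 with INT-787 (adjusted p = 0.00906), and Il1r1 rose by 0.60 with OCA (adjusted p = 0.0471).

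Of 27 transcription factor and feedback genes tested, 5 rose and 3 fell with INT-787, 3 rose and 1 fell with OCA, where 10.2% and 9.48% of all genes rose and fell with INT-787 and 4.15% and 2.45% with OCA, and none was called between the agonists by edgeR, where 2 had an unadjusted p under 0.05 and DESeq2 also called 0. Over the fits without 1 mouse, 2 to 6 rose and 2 to 3 fell with INT-787, and 1 to 4 rose with OCA. Nr0b2, the FXR target that encodes SHP, rose from 21.2 ± 8.59 CPM (SD, n = 10) to 65.0 ± 14.9 CPM (n = 9) with INT-787 (log2 fold change 1.62, adjusted p = 2.03e-07) and to 47.6 ± 11.4 CPM (n = 9) with OCA (1.17, adjusted p = 0.000104). Creb3l3, which encodes CREBH, a factor that acts on hepatic acute phase genes, rose with both, by 0.51 (adjusted p = 0.000141) and 0.33 (adjusted p = 0.0254). Onecut1 (-1.57, adjusted p = 0.00708) and the cytokine signalling inhibitor Socs2 (-1.01, adjusted p = 0.0145) fell with INT-787. With OCA, Nfkb2 fell by 0.34 (adjusted p = 0.0347) and Tsc22d3, a glucocorticoid-induced gene, rose by 0.67 (adjusted p = 0.0465).

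Among 9 receptors and binding partners tested, Scarb1, the high-density lipoprotein receptor that also takes up serum amyloid A, rose from 158 ± 15.5 CPM (SD, n = 10) to 374 ± 50.4 CPM (n = 9) with INT-787 (log2 fold change 1.25, adjusted p = 1.95e-12) and to 336 ± 39.5 CPM (n = 9) with OCA (1.09, adjusted p = 1.64e-10). Cd36 fell with OCA by 0.46 (adjusted p = 0.00697). Cd163, the macrophage receptor for haptoglobin bound to haemoglobin, was low, at 2.23 ± 2.11 CPM (n = 9) with INT-787 and 0.565 ± 0.413 CPM (n = 9) with OCA, and was called higher with INT-787 than with OCA (2.00, adjusted p = 0.0252). That call was lost with limma-voom, with either blocking factor and without INT-787 replicate 5, INT-787 replicate 8, OCA replicate 6 or OCA replicate 8.

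Markers of other cells that make acute phase proteins moved with some of these results. Of 13 macrophage markers, 5 fell with INT-787 against vehicle, none was called with OCA (2 at an unadjusted p under 0.05, 0 by DESeq2), and set against OCA, 5 were lower and 1, Marco, was higher under INT-787, the latter not called by limma-voom. Their summed level ranged from 831 to 1127 CPM with vehicle, 668 to 1349 CPM with OCA and 538 to 1073 CPM with INT-787, where Cd68 (-0.69, adjusted p = 0.000846), Csf1r (-0.46, adjusted p = 0.0126), Itgax (-0.59, adjusted p = 0.0181) and Gpnmb (-0.69, adjusted p = 0.0299) fell most clearly. Gpnmb, Trem2, Cd68 and Itgax led the calls against OCA, at -1.13, -0.90, -0.61 and -0.73. Of 9 stellate and fibroblast markers, 6 fell with INT-787 against vehicle, led by Col3a1 (-1.28), Col1a1 (-1.25), Acta2 (-1.15) and Col1a2 (-1.11), and 5 were lower than with OCA, led by Col3a1 (-1.40), Col1a1 (-1.59), Col1a2 (-1.34) and Lum (-1.09). Lum rose with OCA (0.71, adjusted p = 0.0465), a call that limma-voom did not make. Of 7 cholangiocyte markers tested, Spp1 (-0.74), Cftr (-0.86) and Cldn4 (-0.84) fell with INT-787, and Spp1 was lower than with OCA (-1.12). Of 6 adipocyte markers, Adipoq, Lep and Retn were at 0 in all 28 mice and Plin1 at 0 in most, and the 2 that were tested, Cfd and Fabp4, fell with each agonist (log2 fold changes -4.08 and -1.34 with INT-787, -3.33 and -1.19 with OCA). Of 8 hepatocyte markers, Cps1, Tat and Alb rose with each agonist, by 0.99, 0.75 and 0.45 with INT-787 and 0.89, 0.61 and 0.62 with OCA, and Serpina1c was lower with INT-787 than with OCA (-0.64, adjusted p = 0.0306). The part of the cell make-up of the samples in the values of the members, and of Saa3 and Lcn2 above all, was not tested.

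Pooled over the 3 groups, the members rose and fell together only in part, while within vehicle alone the median r over the pairs was 0.67. Over the 28 mice with group means removed, Pearson's r of log2 CPM was positive in 41 of 45 member pairs, from -0.14 to 0.91 (median 0.37), and 14 pairs had an adjusted p of at most 0.05 over the 45 in a permutation test within groups (11 by Spearman's rho). Saa1 and Saa2 were closest (r = 0.91, rho = 0.85, permutation adjusted p = 0.00045 for both, r = 0.85 without the 2 mice farthest from the median), then Hp and Lcn2 (r = 0.76, rho = 0.64, permutation adjusted p = 0.000675 and 0.0113, r = 0.59 without 2 mice) and Itih3 and Itih4 (r = 0.75, rho = 0.77, permutation adjusted p = 0.00045 and 0.000675, r = 0.73 without 2 mice). Saa4 with Lcn2 gave the lowest r, -0.14.

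The relations were also computed within each group and with the length slope removed, and the part of the slope in them was not tested further. The difference between groups was not tested. Median r over the 45 pairs was 0.67 within vehicle, 0.14 within OCA and 0.03 within INT-787. Hp (r = -0.78) and Orm1 (r = -0.79) were higher in mice in which short transcripts stood higher (permutation test, adjusted p = 0.000495 and 0.00022, rho = -0.71 and -0.64, r = -0.59 and -0.77 without the 2 mice farthest from the median), while Itih3 (r = -0.05) and Itih4 (r = 0.03) gave values near 0. Lcn2 (-0.61), Saa3 (-0.58), Saa2 (-0.55), Orm2 (-0.55) and Saa1 (-0.45) leaned the same way as Hp (permutation test of r, adjusted p from 0.0135 to 0.0468), as did Orm3 (-0.67, adjusted p = 0.00099), while by Spearman's rho only Saa3 and Orm3 among these 6 had an adjusted p of at most 0.05. Without the 2 farthest mice, r was -0.36 for Lcn2, -0.37 for Saa3, -0.32 for Saa2, -0.48 for Orm2, -0.16 for Saa1 and -0.50 for Orm3. With the slope removed, Hp and Orm1 went from r = 0.63 to 0.04 and Saa1 and Hp from 0.20 to -0.27, whereas Saa1 and Saa2 stayed at 0.89, Itih3 and Itih4 at 0.75 and Orm1 and Orm2 at 0.61. Without vehicle replicates 5 and 10, 7 pairs had an adjusted p of at most 0.05, and with the slope removed 5 did.

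**Figure D5:**
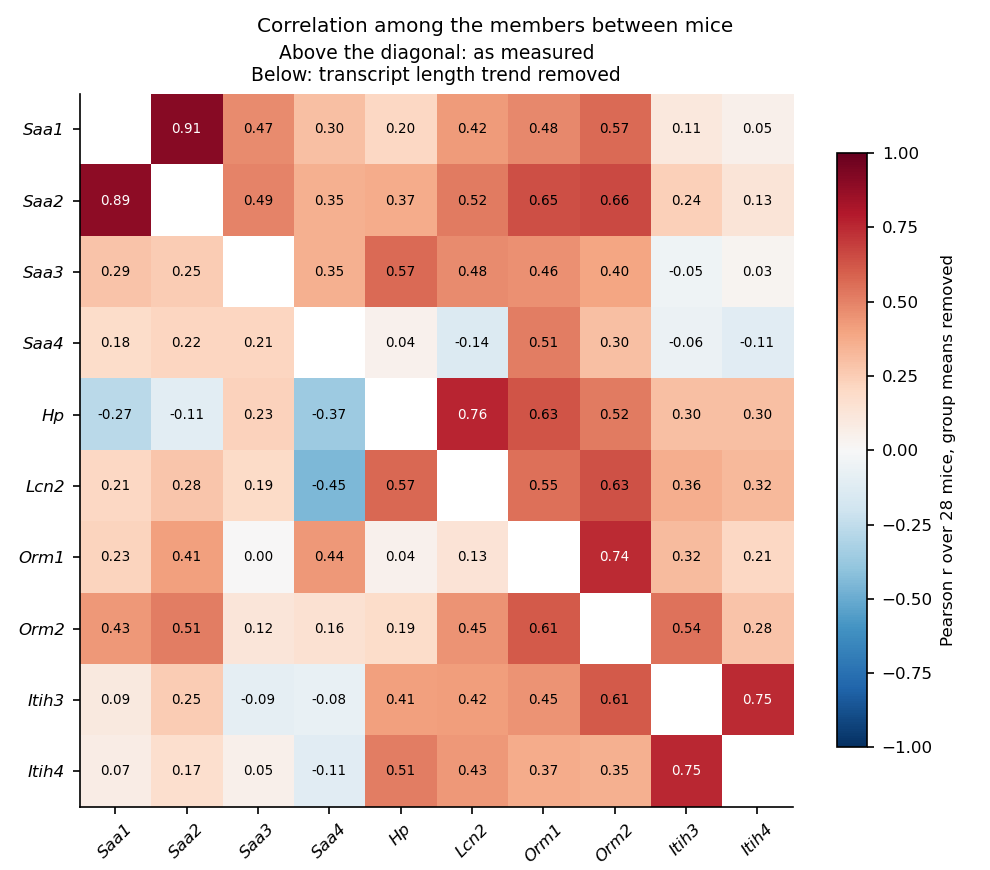
Pearson's r between members over 28 mice after removal of group means, as measured above the diagonal and with the transcript length slope of each mouse removed below it. The cells for Saa1 with Saa2 (0.91 and 0.89) and Itih3 with Itih4 (0.75 and 0.75) are dark on both sides, whereas Hp with Orm1 is 0.63 above and 0.04 below.

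The genes whose levels followed the members most closely, over the same 28 mice, are given as a description. For Saa1+Saa2 they were Stk11 (r = 0.76), Ifi35 (0.74), Myl6b (0.74), Pfdn6 (0.74) and Cnpy3 (0.74). For Hp they were Elob (0.91), Txn2 (0.90), Dad1 (0.89), C8g (0.88) and Serpina1a (0.88), and for Lcn2 they were Tmem176a (0.89), Tmem176b (0.86), Sh3bgrl3 (0.83), Gnai2 (0.82) and Cd14 (0.82). Every one of these genes also fell along the length slope, with r from -0.30 (Cd14) to -0.89 (Elob), and what part of the likeness this holds was not tested.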

How the data were processed

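Poly(A) RNA from terminal liver samples was sequenced from stranded libraries on a NextSeq instrument for 75 cycles. The authors aligned reads with STAR to GRCm38 (mm10) and deposited a table of raw read counts per Ensembl gene, and the counting rule is not given in the sources used here. Of the 21935 gene identifiers, 21858 matched a symbol. Each column was tied to a mouse by the sample number in the labels, and groups came from the labelled treatment. Each library is 1 mouse.

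Counts were normalised by TMM in edgeR 4.0.16 (R 4.3.3), genes were kept by filterByExpr, and 1 quasi-likelihood model of the 3 groups tested each comparison, with Benjamini-Hochberg adjustment over 12580 genes and a threshold of 0.05. Summed genes were tested in a second fit in which the sum replaced its rows. Log2 CPM used a prior count of 2. DESeq2 1.42.0 (the tool of the study), limma-voom (limma 3.58.1), other scalings and filters, and fits without each mouse served as alternatives. Correlations used 100000 permutations of mice within groups, and single values used exact permutation tests (SciPy 1.17.1). Transcript positions, lengths and shared stretches came from GENCODE on GRCm38, and promoters from RefSeq. The 75-base stretches follow the cycle number.

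The members and the gene lists were chosen with earlier results of these data known. All members and Orm3 are named in every comparison, and from each list and comparison every called gene up to 4, or the 4 with the smallest adjusted p. On simulated counts of the same 12580 genes for INT-787 against vehicle, 54 of 100 genes changed 1.5-fold and 93 of 100 changed 2-fold were recovered, with 6 unchanged genes called. The simulation called 153 genes where the data gave 2469, so the adjusted threshold was stricter in the simulation. These shares therefore do not measure recovery in the data. No 2 libraries of a group agreed within sampling noise, the smallest chi-square per gene being 2.95. The precision of each value follows from the counts, with library totals from 1009593 to 22421506.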

Additional observations from a re-analysis of the deposited data

Results flagged for a closer look

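In 5 of 39 sets of CPM values (a gene or sum in 1 group), 1 mouse stood apart from the rest of its group. The gap was larger than Dixon's 95% limit allows for its range, where chance alone gives about 1 in 20 for normally distributed values. All 5 were the highest value of their group. The gaps were not taken on log2 CPM, where high values lie closer together, so the count holds for the CPM scale only. Lcn2 in OCA replicate 8 was 1348 CPM, with the next OCA mouse at 764 CPM. Lcn2 in vehicle replicate 10 was 1386 CPM, with the next vehicle mouse at 779 CPM. These 2 mice carry neighbouring sample numbers. The sum Orm1+Orm2+Orm3 in vehicle replicate 10 was 1878 CPM, against 1347 CPM in the next vehicle mouse, vehicle replicate 5. Saa2 in OCA replicate 7 was 271 CPM (next 199 CPM), and the sum Saa1+Saa2 in the same mouse was 581 CPM (next 415 CPM). The sets share mice and genes, so the 5 are not independent.

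Vehicle replicate 10 and OCA replicates 7 and 8 also had length slopes below 0, at -0.27, -0.11 and -0.06. What part the slope has in these values was not tested.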

How the results depend on the processing

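The falls of Saa1, Saa2, their sum, Orm2 and Lcn2 with INT-787, against vehicle and against OCA, kept their direction and their call in all 14 alternative settings and all 28 fits without 1 mouse. Members called with INT-787 numbered 5 to 8 against vehicle and 7 to 9 against OCA over all settings. For OCA against vehicle the 2 called members became 5 with the replicate block, 4 with the transcript length trend as a covariate, 5 without vehicle replicates 5 and 10 together, and 2 to 4 without 1 mouse. The length covariate, the joint exclusion of vehicle replicates 5 and 10 and the ratios of neighbours were added after the data were seen. No treated mouse carries the replicate label 10, so the replicate block gives vehicle replicate 10 no weight. Same-numbered mice correlated at -0.24 to 0.43 over 27 pairs, 11 of them over 0.1, so the numbers were not taken to pair the mice. Pairs of replicates 1 to 3 were all positive, at 0.099 to 0.43, and the source of this was not tested. Mice were also matched by runs of neighbouring sample numbers, in which vehicle replicate 10 stands with OCA replicate 8 and INT-787 replicate 9. These correlated at -0.20 to 0.43 over 25 pairs, 13 of them over 0.1, and with the run as a factor 7, 2 and 8 members were called, Itih3 between the agonists being lost (-0.40, adjusted p = 0.0566). In the block fit Orm1 was not called lower with INT-787 (-0.25, adjusted p = 0.0954), and Saa1, Saa3 and Orm1 were called higher with OCA. Of 45 correlations, the 14 past the threshold became 5 without the 2 farthest mice, 5 with the length trend removed and 7 without vehicle replicates 5 and 10. The value of Hp for OCA against vehicle, never called, turned positive with limma-voom (0.0373), the replicate block (0.124), without vehicle replicates 5 and 6 (0.0330), with the length trend (0.0711) and without vehicle replicates 5 and 10 (0.219), and spanned -0.0911 to 0.0881 without 1 mouse. That of Saa4 for INT-787 against vehicle, also never called, spanned -0.0288 to 0.170 without 1 mouse. The cause of these shifts was not tested. Orm1 against vehicle with INT-787 was not called in 7 of 14 settings, nor was Orm3 with upper-quartile scaling (0.58, adjusted p = 0.0526). Saa3 was called lower against vehicle there (-0.69, adjusted p = 0.0447). Upper-quartile scaling lowered the share of called genes that were higher from 51.7% to 37.5% for INT-787 against vehicle and from 62.9% to 52.3% for OCA against vehicle. The 7 list counts in 3 comparisons moved by over 1.5 times in 63 of 294 alternatives and 70 of 588 fits without 1 mouse. Saa3 could not be given a value at 10 counts in every mouse.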
